A study of Mus musculus with 26 samples.

Results

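The comparison asks how gene expression in macrophages of the pancreatic islet changed between 4 and 12 weeks of age in NOD mice, set against the change over the same weeks in B6 mice. It uses 15 of the 26 libraries of the series, chosen by strain and age alone, and all 40558 genes in the table. The quantity is an interaction on the log2 scale, the change from 4 to 12 weeks in NOD minus the change from 4 to 12 weeks in B6. A positive interaction means that a gene's change with age was more positive in NOD, and a negative interaction that it was more negative in NOD. It does not by itself say in which strain the gene moved, so changes or levels within each strain stand beside many of the values.

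Macrophages had been sorted from the dispersed islets of female mice and their RNA sequenced as whole populations. The 4 groups were NOD/ShiLtJ (NOD) mice at 4 weeks (n = 4) and at 12 weeks (n = 3), and C57BL/6J (B6) mice at 4 weeks (n = 4) and at 12 weeks (n = 4). The labels name no transgene, deletion or treatment in either strain. Each library pooled islet cells from 6 to 14 mice. Nothing else in the labels says how the libraries of a group were collected, so p-values measure the spread between these libraries. Live cells positive for CD45, F4/80 and CD11c and negative for B220 and CD90 had been sorted, and the gate thereby fixed part of the level of Ptprc, Adgre1 and Itgax. The RNA was amplified before sequencing. Levels are given as CPM, a gene's count relative to the total of its library, after scaling by the trimmed mean of M values, and they are not divided by gene length.

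Islet macrophages are the main resident immune cells of the islet, where they take up material released by beta cells and present peptides on MHC class II molecules. NOD mice develop autoimmune diabetes spontaneously after lymphocytes have entered the islets, and B6 mice do not. Interferon-gamma made by lymphocytes acts on macrophages and raises MHC genes, guanylate-binding proteins, immunity-related GTPases and chemokines.

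Total counts of the 15 libraries ran from 4957125 to 12725828. The core macrophage markers, 18 genes among them Csf1r, Cd68 and Tyrobp, summed to 9688 to 17940 CPM per library, and none was at 0 throughout a group. In B6 this sum was 15850 to 17940 CPM at 4 weeks and 9688 to 12600 CPM at 12 weeks, which did not overlap. In NOD it was 12510 to 13560 CPM at 4 weeks and 11530 to 15500 CPM at 12 weeks, which did. The B6 4 week libraries stood apart. They held 14152 to 17839 genes with a count, their mean Spearman correlation with each other was 0.727, and 4204 to 6560 of the 19703 tested genes had 0 counts in each. The other 3 groups had correlations of 0.835 (B6 12 weeks), 0.935 (NOD 4 weeks) and 0.921 (NOD 12 weeks), and 559 to 3312 tested genes at 0 per library. Since the interaction subtracts these libraries, many results are also given with the 3 B6 2 week libraries in their place, in a fit without B6 4 weeks. That stand-in was chosen after the data had been seen and asks about another span of age in B6. The plot of genes at 0 counts shows both measures by group.

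**Figure D1:**
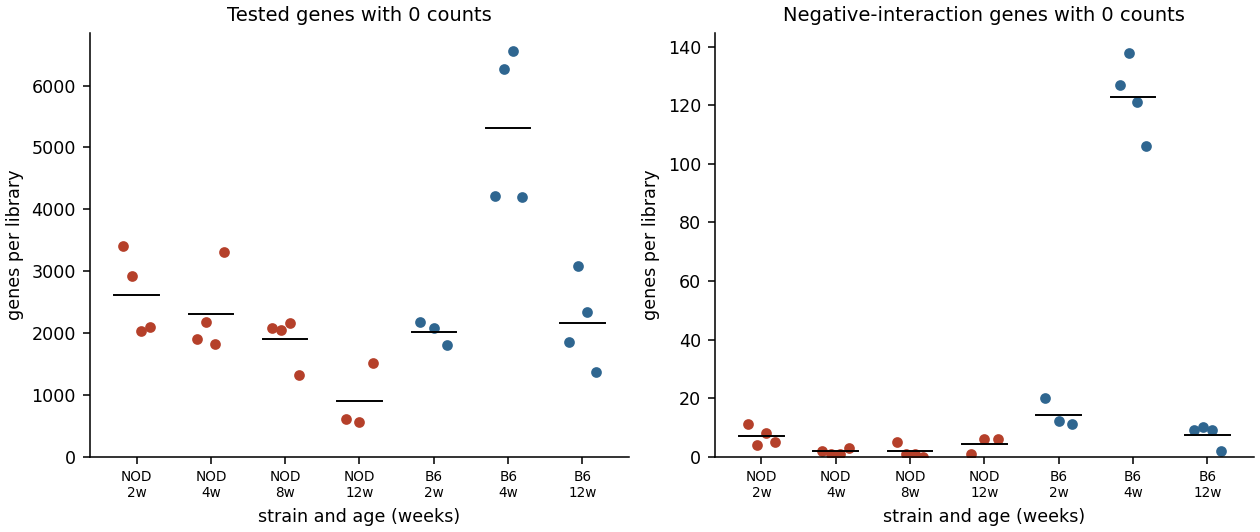
Number of genes with 0 counts per library (y axis) by strain and age (x axis), for all 19703 tested genes on the left and for the 385 genes with a negative interaction on the right; points are libraries and bars are group means. The 4 B6 4 week libraries lack 4204 to 6560 tested genes and 106 to 138 of the negative-interaction genes, against at most 20 of the latter in any library of another group. A low level in B6 at 4 weeks makes an interaction more negative by definition, so the right panel is no separate support for those calls.

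The strain-by-age interaction passed the threshold (adjusted p under 0.05, edgeR quasi-likelihood test, Benjamini-Hochberg over all tested genes) for 874 of 19703 genes, or 4.44%. It was positive for 489 genes (2.48%) and negative for 385 (1.95%). A fit of the 15 libraries of the 4 groups alone called 292 of 17656 genes (1.65%), and 289 of these were also called, with the same sign, in the fit of all libraries. There 202 were positive (1.14%) and 90 negative (0.51%). Within the strains, 320 genes changed between 4 and 12 weeks in NOD (1.62%), 143 upward (0.726%) and 177 downward (0.898%), and 3720 changed in B6 (18.9%), 2043 upward (10.4%) and 1677 downward (8.51%). The order of these 2 totals depended on the tool, since limma-voom with sample weights called 3286 genes in NOD and 410 in B6, and a fit without B6 4 weeks called 951 in NOD. Over the longer span from 2 to 12 weeks the same strain difference was called for 329 genes (1.67%), 205 positive (1.04%) and 124 negative (0.629%).

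The positive calls came mostly with a fall in B6. Among the 489, the B6 estimate was negative for 478 and the larger of the 2 changes for 344, and the median change was 0.47 in NOD and -1.29 in B6. Over all 19703 tested genes the B6 estimate was negative for 9499 and the larger of the 2 changes for 13327. The share with a larger B6 change among positive calls was thus near that of all genes. A fall in B6 also makes an interaction more positive by definition. For 145 genes the NOD change was the larger, with medians of 1.80 in NOD and -0.83 in B6. The negative calls came mostly with a larger change in B6. The B6 change was the larger for 320 of the 385, with a median of 4.21 in B6 against -0.42 in NOD, and 200 of these 320 had a mean under 1 CPM in B6 at 4 weeks. For the other 65 the NOD change was the larger, with medians of -1.39 in NOD and 0.17 in B6, and 2 of the 65 were under 1 CPM in B6 at 4 weeks.

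**Figure D2:**
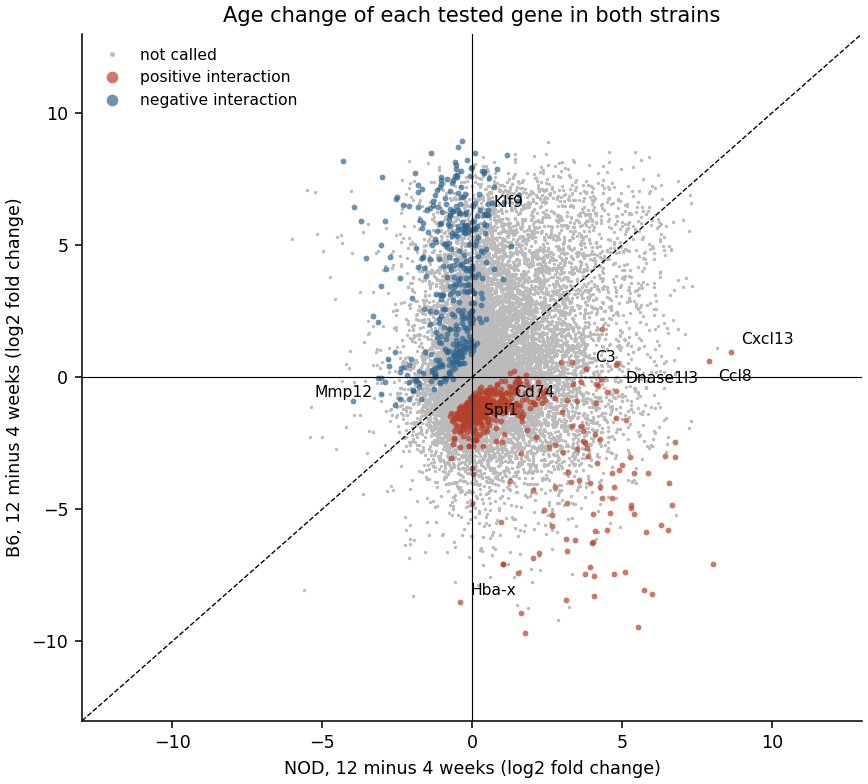
Log2 fold change from 4 to 12 weeks in NOD (x axis) against that in B6 (y axis) for each of the 19703 tested genes; the dashed line marks equal changes, and colour marks the 489 positive and 385 negative interactions. Cxcl13 and Ccl8 lie far to the right, at B6 changes of 0.97 and 0.60, the genes around Spi1 lie below 0 on the B6 axis with little change in NOD, and the negative calls rise along the B6 axis, with Klf9 among them.

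Cxcl13, Ccl8, C3, Dnase1l3 and Ptgs2 rose strongly with age in NOD. Cxcl13, the chemokine that draws B cells into follicles (chr5:95956951-95961068, GRCm38), had 3.26, 4.71, 2.73 and 5.05 CPM in the NOD 4 week libraries and 1138, 1186 and 2386 CPM at 12 weeks. In B6 it had 1.51, 2.54, 2.39 and 4.93 CPM at 4 weeks and 4.46, 3.25, 5.75 and 8.59 CPM at 12 weeks. All 3 NOD 12 week libraries lay far above every other library of the 4 groups, while the B6 ages overlapped. The interaction was 7.67 ± 0.48 (log2, SE, adjusted p = 5.44e-12), with changes of 8.63 in NOD and 0.97 in B6 (adjusted p = 7.2e-16 and 0.0412). At 8 weeks, an age sampled in NOD only, Cxcl13 stood at 131 to 223 CPM, between the other NOD ages.

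Ccl8, a chemokine for monocytes and T cells (chr11:82115185-82116799), had 0.441, 1.42, 0.935 and 0.158 CPM in NOD at 4 weeks and 167, 137 and 231 CPM at 12 weeks. The B6 libraries held 0 to 0.719 CPM at 4 weeks and 0.212 to 0.714 CPM at 12 weeks. Every B6 library was thus near or under the level that 3 counts give, 0.308 to 0.536 CPM in B6, and only the NOD 12 week group was clearly expressed. The interaction was 7.28 ± 1.06 (adjusted p = 5.43e-05).

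C3, the central component of complement (chr17:57203970-57228136), had 61.8, 157, 129.6 and 61.9 CPM in NOD at 4 weeks and 1488, 1175 and 1578 CPM at 12 weeks. In B6 it had 6.61, 34.6, 9.43 and 14.3 CPM at 4 weeks and 13.7, 19.5, 17.4 and 28.3 CPM at 12 weeks. The NOD ages did not overlap and the B6 ages did. The interaction was 3.49 ± 0.52 (adjusted p = 1.16e-04). C3 was already higher in NOD than in B6 at 4 weeks, by 2.66 (adjusted p = 1.28e-05).

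Dnase1l3, a secreted nuclease that degrades DNA in chromatin and vesicles (chr14:7964533-7994573), rose from 116, 256, 146 and 66.0 CPM to 3897, 3406 and 4837 CPM in NOD. In B6 it had 143, 288, 228 and 65.4 CPM at 4 weeks and 115, 160.2, 95.7 and 135 CPM at 12 weeks. The 4 week groups of the strains overlapped, and at 12 weeks the NOD libraries had at least 3406 CPM and the B6 libraries at most 160 CPM. The interaction was 5.31 ± 0.66 (adjusted p = 4.29e-05). Ptgs2, the inducible cyclooxygenase that starts prostaglandin synthesis, had 29.5, 39.6, 35.6 and 19.0 CPM in NOD at 4 weeks and 414, 180.2 and 228 CPM at 12 weeks. Its B6 libraries ranged from 43.4 to 112 CPM at 4 weeks and from 13.8 to 61.4 CPM at 12 weeks. The interaction of Ptgs2 was 4.01 ± 0.54 (adjusted p = 1.34e-05).

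These 5 genes were called in every alternative fit but limma-voom with sample weights, in which the adjusted p was 0.403 for Cxcl13, 0.162 for Ccl8, 0.516 for C3 and 0.137 for Dnase1l3, while Ptgs2 stayed at 0.0229. With B6 2 weeks as the stand-in the interactions were 7.58, 7.38, 3.62, 5.37 and 3.46 in the order Cxcl13, Ccl8, C3, Dnase1l3 and Ptgs2, so these values were close to those with B6 4 weeks. The plot of levels per library shows 4 of them.

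**Figure D3:**
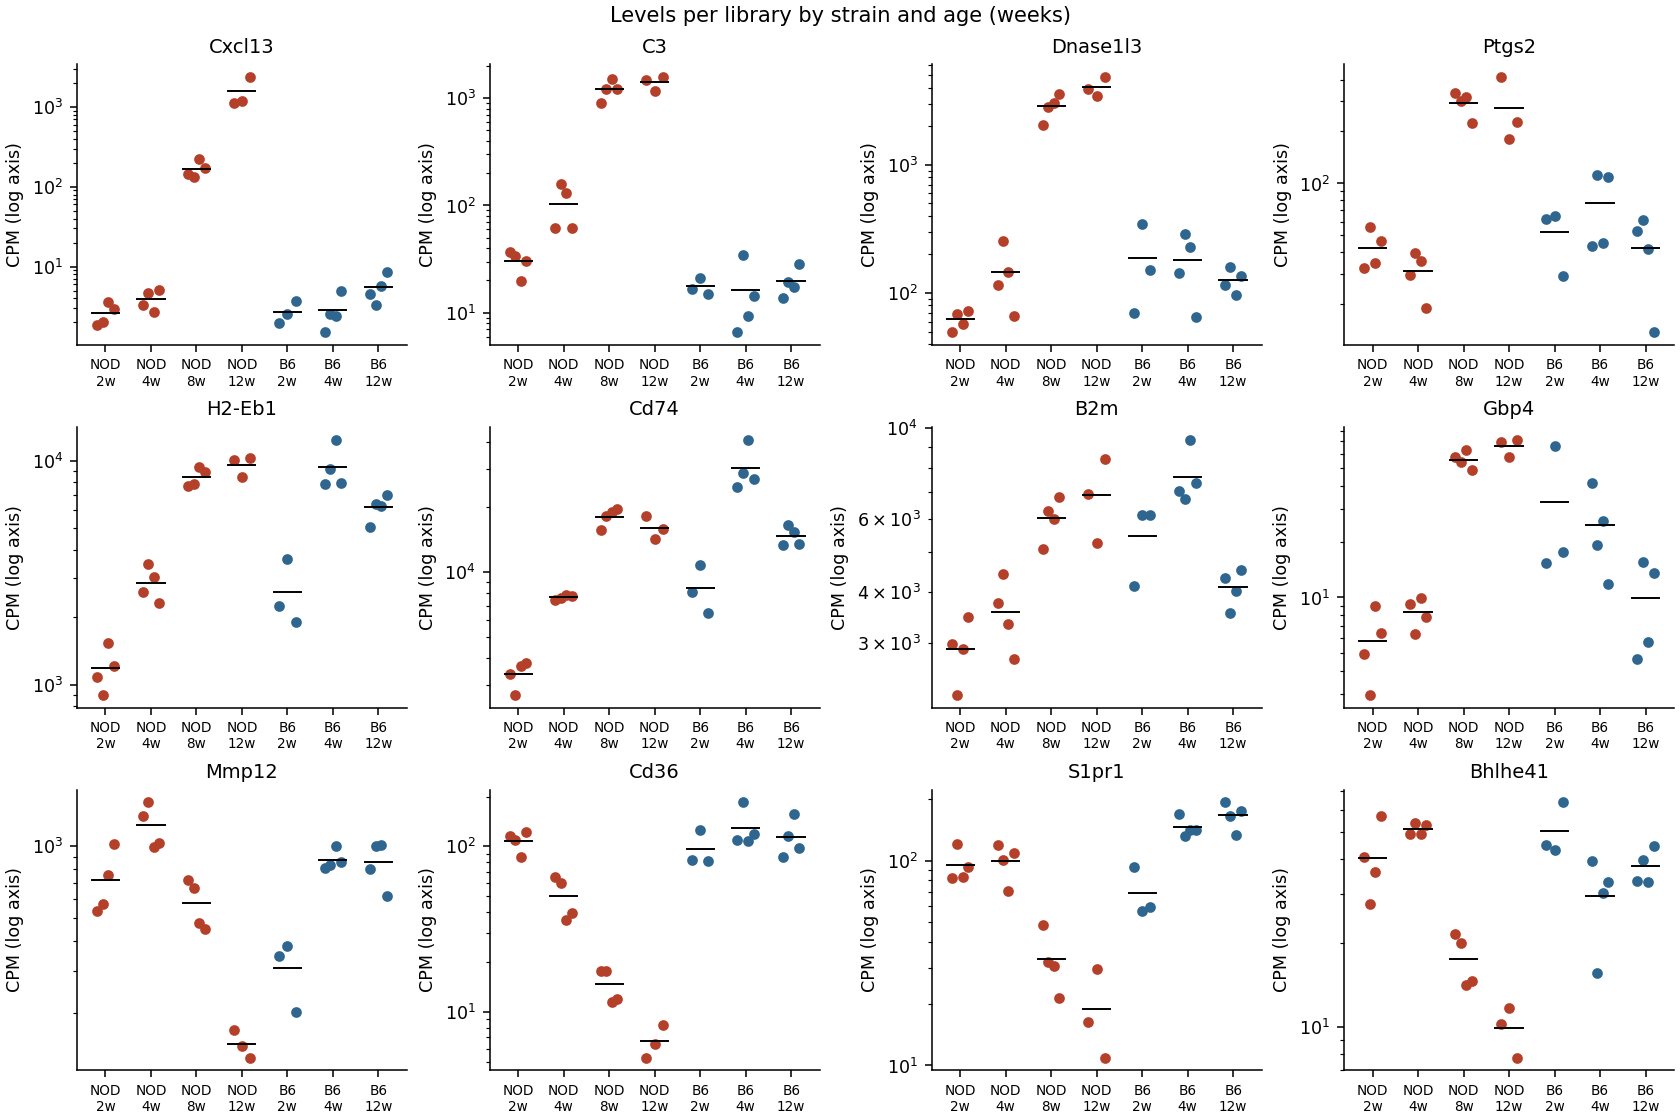
CPM per library (y axes, log scale) of 12 named genes by strain and age in weeks (x axes); points are libraries and bars are group means. The top row and Gbp4 rise in NOD by 8 and 12 weeks, the MHC genes rise in NOD and stand high in B6 at 4 weeks, and the bottom row falls in NOD at 8 and 12 weeks with B6 at 12 weeks near its 4 week level.

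Further genes with large positive values joined a rise in NOD to a low or uneven level in B6. Ly6a, a surface antigen of stem cells and activated leukocytes, had 3.52, 2.47, 1.17 and 0.237 CPM in NOD at 4 weeks and 53.1, 51.8 and 73.3 CPM at 12 weeks. In B6 it had 23.2, 0.254, 2.16 and 8.42 CPM at 4 weeks and 0.267 to 1.49 CPM at 12 weeks. The B6 4 week libraries spread over both the NOD 4 week and the B6 12 week range, and the interaction was 8.32 ± 1.47 (adjusted p = 5.38e-04). Ptprm, a receptor tyrosine phosphatase, rose from 0.315 to 2.18 CPM at 4 weeks to 29.3 to 31.9 CPM at 12 weeks in NOD, with 0.114 to 59.3 CPM in B6 at 4 weeks and 6.55 to 19.8 CPM at 12 weeks. It was called with either baseline (6.33 and 5.76) but not in limma-voom (adjusted p = 0.11). Chil1, a chitinase-like protein of activated macrophages, rose from 1.81 to 17.8 CPM to 112 to 316 CPM in NOD and stayed at 0.381 to 12.1 CPM in B6, and its interaction of 4.35 was 3.15 with B6 2 weeks (adjusted p = 0.0647) and did not pass in limma-voom (adjusted p = 0.297). Gcnt2, a glycosyltransferase gene, was at 4.55 with B6 4 weeks and at 1.83 with B6 2 weeks (adjusted p = 0.395), and did not pass without the third NOD 12 week library (adjusted p = 0.0548). It also did not pass in limma-voom (adjusted p = 0.0672) or without a filter (0.0805).

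Other positive calls among the largest had a high level in at least 1 B6 4 week library, and for some a rise in NOD added to the interaction. Hba-x, an embryonic alpha-like globin gene, had 37.7, 25.5, 31.6 and 24.7 CPM in B6 at 4 weeks, 0 to 0.162 CPM in B6 at 12 weeks and 1.23 to 3.27 CPM in NOD at both ages, and no fold is given because B6 at 12 weeks held 2 counts. Spib, a relative of Spi1, had 2.26 to 21.3 CPM in B6 at 4 weeks and 0.318 to 0.893 CPM at 12 weeks. In NOD it had 0.264 to 2.68 CPM at 4 weeks and 2.91 to 5.98 CPM at 12 weeks. Spib passed with B6 2 weeks as well (5.19, adjusted p = 0.00869). Vill, a villin-like gene, had 14.1 to 57.7 CPM in B6 at 4 weeks and at most 11.5 CPM in the other 3 groups. Its NOD levels were 0 to 0.176 CPM at 4 weeks and 0.324, 3.78 and 0.225 CPM at 12 weeks. Rgs6, a regulator of G protein signalling, had 0.348, 44.3, 37.1 and 37.0 CPM in B6 at 4 weeks and at most 8.75 CPM elsewhere in the 4 groups, so 3 of its 4 libraries stood apart. Rgs6 in NOD had 0 to 0.237 CPM at 4 weeks and 1.94 to 3.49 CPM at 12 weeks. Dlgap3, known from synapses, had 0.116, 46.4, 0.454 and 5.65 CPM in B6 at 4 weeks. Its NOD levels were 0 to 0.299 CPM at 4 weeks and 0.225 to 2.81 CPM at 12 weeks. Vill, Rgs6 and Dlgap3 did not pass with B6 2 weeks (adjusted p = 0.313, 0.0898 and 0.16). Dlgap3 was at 6.96 (adjusted p = 0.0506) without the second B6 4 week library and Vill at 3.39 (adjusted p = 0.212) without the second NOD 12 week library.

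A broader view comes from the gene lists. Of 28 tested inflammatory cytokines and chemokines, 8 had a positive interaction and 0 a negative, against 2.48% and 1.95% of all tested genes. The median interaction of the list was 0.99, against 0.05 over all tested genes. Besides Cxcl13, Ccl8 and Ptgs2 the 8 were Ccl5, Il12b, Il10, Osm and Cxcl16. The fit of the 4 groups alone kept 6 of these 8. Of the 28 genes limma-voom called 3 and DESeq2 8, all positive. Ccl5, a chemokine for T cells, had 15.9, 21.8, 17.3 and 4.73 CPM in NOD at 4 weeks and 316, 203 and 279.5 CPM at 12 weeks. The B6 4 week libraries had 68.1, 2.03, 2.95 and 12.1 CPM and the B6 12 week libraries 8.82 to 24.2 CPM, and the B6 4 week libraries overlapped both NOD at 4 weeks and B6 at 12 weeks. Its interaction of 4.41 ± 1.20 (adjusted p = 0.0371) was 2.52 without the first B6 4 week library (adjusted p = 0.0825). Ccl5 lost its call in 15 of 25 alternatives, among them the omission of any 1 NOD library (adjusted p of 0.0519 to 0.0969), limma-voom (0.383), no filter (0.0753), the replicate block (0.115) and the islet covariate (0.0568). Cxcl16, a scavenger receptor and chemokine, moved otherwise: it changed by 0.03 in NOD (adjusted p = 0.993) and fell by 0.67 in B6, and with B6 2 weeks it did not pass (0.15, adjusted p = 0.659). The proinflammatory cytokines Il1b (interaction 1.03, adjusted p = 0.0691) and Tnf (1.16, adjusted p = 0.151) did not pass, and Ccl4 was at -0.07 (adjusted p = 0.943).

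MHC class II presentation was the list with the largest share of calls. Of its 12 tested genes 8 had a positive interaction and 0 a negative, and the median was 1.98, with medians of 1.11 for the NOD change and -0.60 for the B6 change. H2-Eb1, a beta chain of the class II dimer (chr17:34305867-34316674), had 2599, 3440.2, 3021 and 2327 CPM in NOD at 4 weeks and 10028, 8495 and 10272 CPM at 12 weeks. B6 libraries of this gene had 7863, 9212, 12409 and 7976 CPM at 4 weeks and 5058, 6437, 6255 and 6994 CPM at 12 weeks. The ages did not overlap in either strain, and they moved in opposite directions, 1.75 upward in NOD (adjusted p = 1.54e-07) and -0.60 in B6 (adjusted p = 0.0149). The interaction was 2.35 ± 0.25 (adjusted p = 2.74e-07).

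Other class II genes also moved in opposite directions with age. Cd74, the invariant chain that escorts class II molecules, had 7472, 7597, 7819 and 7772 CPM in NOD at 4 weeks and 18321, 14216 and 15859 CPM at 12 weeks. Its B6 levels were 24884, 28913, 41161 and 27188 CPM at 4 weeks and 13440.0, 16489, 15397 and 13576 CPM at 12 weeks. NOD was thus below every B6 library at 4 weeks, by 1.99 on the log2 scale (adjusted p = 3.35e-11), and at 12 weeks the strains overlapped and differed by 0.13 (adjusted p = 0.852). The interaction was 2.13 ± 0.20 for Cd74 (adjusted p = 5.11e-08) and 2.02 ± 0.23 for H2-Ab1, the other class II beta chain (adjusted p = 2.03e-06). H2-Aa, H2-DMa, H2-DMb1, H2-Oa and the lysosomal reductase gene Ifi30 were called as well. Ciita, the coactivator of class II genes, changed by 0.88 in NOD (adjusted p = 0.0616), and its interaction of 0.95 did not pass (adjusted p = 0.098).

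The class II result depended on the B6 baseline. With B6 2 weeks in place of B6 4 weeks, 4 of the 12 genes were called positive and the list's median was 0.28. The interactions were then 0.51 for H2-Eb1 (adjusted p = 0.265), 0.28 for Cd74 (adjusted p = 0.451) and 0.27 for H2-Ab1 (adjusted p = 0.587). H2-Eb1 had 1907 to 3629 CPM in B6 at 2 weeks, so the gene stood higher at both later ages in B6. Ifi30 differed from these genes. It had 315 to 372 CPM in NOD at 4 weeks and 915 to 1215 CPM at 12 weeks, 218 to 360 CPM in B6 at 4 weeks and 138 to 182 CPM at 12 weeks, and its interaction was 2.53 ± 0.23 with B6 4 weeks and 2.63 with B6 2 weeks (adjusted p = 1.2e-10).

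Of 16 tested MHC class I presentation genes, 10 had a positive interaction and 0 a negative, with a median of 1.69. B2m, the light chain of class I molecules (chr2:122147686-122153083), had 3762, 4407, 3331 and 2741 CPM in NOD at 4 weeks and 6920.2, 5267 and 8404 CPM at 12 weeks. The B6 libraries held 7043, 6719, 9378 and 7359.6 CPM at 4 weeks and 4329, 3551, 4022 and 4521 CPM at 12 weeks. Again neither strain's ages overlapped and the directions were opposite, with an interaction of 1.84 ± 0.23 (adjusted p = 5.22e-06), or 1.37 with B6 2 weeks. The heavy chain genes H2-D1 (1.94 ± 0.20, adjusted p = 2.74e-07) and H2-K1 (1.72 ± 0.22, adjusted p = 9.36e-06) differed in their B6 part, as H2-D1 fell by 0.85 in B6 and H2-K1 changed by -0.14 (adjusted p = 0.526). The proteasome activator subunits Psme1 and Psme2 and the immunoproteasome subunits Psmb9 and Psmb10 were called, and the peptide transporters Tap1 (0.71, adjusted p = 0.502) and Tap2 (1.66, adjusted p = 0.479) were not. The class I list had 9 positive calls and a median of 1.19 with B6 2 weeks, and 6 calls without the third NOD 12 week library. The part of sequence differences between the strains at these genes was not tested.

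Of 24 tested interferon-gamma response genes 7 were called positive and 0 negative. The fit of the 4 groups alone kept 4 of these 7. Of the 24 genes limma-voom called 3 and DESeq2 12, all positive. At an unadjusted p under 0.05, which 10.4% of all tested genes met with a positive value and 9.93% with a negative, 16 were positive and 0 negative. For class I and class II genes these counts were 11 and 0 of 16 and 12 and 0 of 12. The list's median was 1.59, with 2.17 for the NOD change and 0.10 for the B6 change, and its summed level was 1244 to 1811 CPM in NOD at 4 weeks, 5035 to 7373 CPM in NOD at 12 weeks and 961 to 1539 CPM over all B6 libraries of both ages. Gbp4, a guanylate-binding GTPase (chr5:105115767-105139586), had 9.16, 6.36, 9.89 and 7.81 CPM in NOD at 4 weeks and 69.7, 57.6 and 71.4 CPM at 12 weeks. For B6 the values were 41.9, 19.3, 25.8 and 11.8 CPM at 4 weeks and 4.64, 15.6, 5.75 and 13.6 CPM at 12 weeks. The NOD 12 week libraries lay above every other library of the 4 groups, and the B6 ages overlapped. The interaction of Gbp4 was 4.31 ± 0.67 (adjusted p = 1.21e-04), or 4.73 with B6 2 weeks. The immunity-related GTPase Irgm2 (2.49 ± 0.55, adjusted p = 0.00662), the Fc receptor genes Fcgr1 and Fcgr4, the chemokines Cxcl9 and Cxcl10, and Irf1 were the other calls.

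Some interferon-gamma genes had large estimates that did not pass. Iigp1 was at 4.87 ± 1.57 (adjusted p = 0.0698) and Cd274, which encodes the checkpoint ligand PD-L1, at 3.32 ± 1.05 (adjusted p = 0.0761). With B6 2 weeks as the baseline 17 of the 24 were called positive and the median was 2.55. The call count moved with single libraries too: it was 4 without any 1 of the third or the fourth NOD 4 week, the first or second NOD 12 week or the third B6 12 week library, and 3 without the third NOD 12 week library. The type I interferon-stimulated genes, a list of 26 that includes Isg15 and the Ifit genes, gave 1 positive call (Zbp1, adjusted p = 0.042) and 0 negative calls, with a median of 0.21. That was 3.85% of the list, against 4.44% of all tested genes. Zbp1 did not pass when any 1 of the NOD or the B6 12 week libraries was left out (adjusted p of 0.0581 to 0.11).

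**Figure D4:**
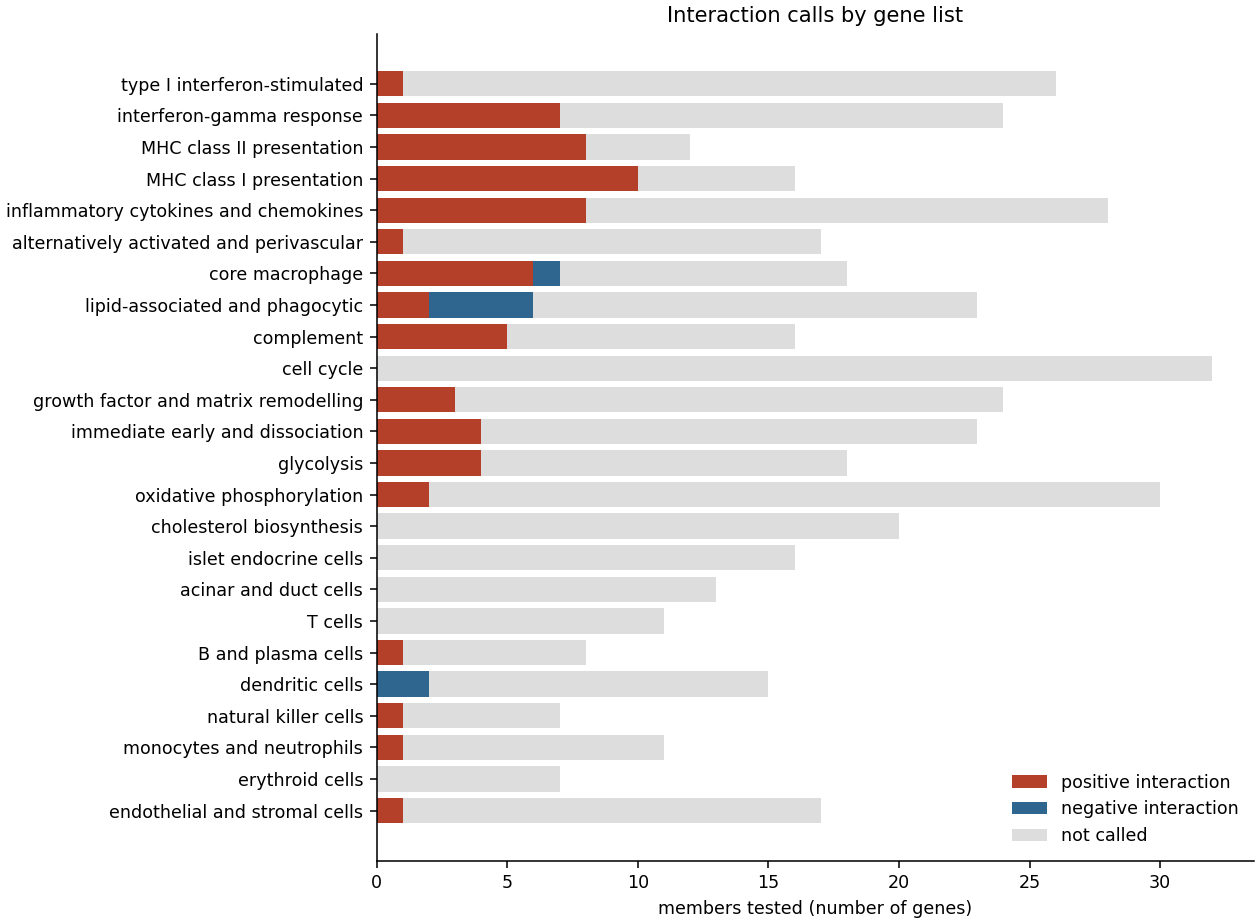
Number of tested members per gene list (x axis) with a positive interaction, a negative interaction or no call, for 15 lists of macrophage programs and 9 lists of other cells (y axis). The MHC class II list has 8 of 12 and the MHC class I list 10 of 16 members called positive, and the cell cycle, cholesterol, islet endocrine, acinar and duct, T cell and erythroid lists have none.

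Promoters of H2-Eb1, H2-Aa, H2-D1, B2m and the interferon-gamma response gene Irgm2 are shown as examples that hold the letters of a motif. They run from 250 bases before to 50 bases after the RefSeq start (GRCm38.p6), 5′ to 3′ on the gene's strand. Capitals mark the Y box, CTGATTGG on either strand, to which the factor NF-Y binds at MHC genes; the gamma-activated site GAS, TTCNNNGAA; or the interferon-stimulated response element ISRE, GAAA, any 2 bases and GAAA, on either strand.

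H2-Eb1 (chr17:34305617-34305916, plus strand): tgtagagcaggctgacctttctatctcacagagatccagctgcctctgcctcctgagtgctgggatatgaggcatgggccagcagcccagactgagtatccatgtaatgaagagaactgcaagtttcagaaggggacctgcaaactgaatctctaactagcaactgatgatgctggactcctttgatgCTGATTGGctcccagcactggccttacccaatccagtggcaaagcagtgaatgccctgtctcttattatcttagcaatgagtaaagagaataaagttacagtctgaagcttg
H2-Aa (chr17:34287774-34288073, minus strand): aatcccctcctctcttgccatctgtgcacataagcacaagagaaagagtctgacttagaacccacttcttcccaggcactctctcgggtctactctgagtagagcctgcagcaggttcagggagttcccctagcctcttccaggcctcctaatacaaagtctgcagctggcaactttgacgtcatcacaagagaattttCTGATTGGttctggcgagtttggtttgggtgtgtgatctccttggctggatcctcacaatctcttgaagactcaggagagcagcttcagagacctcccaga
H2-D1 (chr17:35262844-35263143, plus strand): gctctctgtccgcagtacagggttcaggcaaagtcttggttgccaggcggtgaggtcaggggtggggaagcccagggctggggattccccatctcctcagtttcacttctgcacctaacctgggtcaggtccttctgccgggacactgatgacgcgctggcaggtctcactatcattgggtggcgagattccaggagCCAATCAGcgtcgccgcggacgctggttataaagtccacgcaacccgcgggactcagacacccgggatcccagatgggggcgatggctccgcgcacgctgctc
B2m (chr2:122147437-122147736, plus strand): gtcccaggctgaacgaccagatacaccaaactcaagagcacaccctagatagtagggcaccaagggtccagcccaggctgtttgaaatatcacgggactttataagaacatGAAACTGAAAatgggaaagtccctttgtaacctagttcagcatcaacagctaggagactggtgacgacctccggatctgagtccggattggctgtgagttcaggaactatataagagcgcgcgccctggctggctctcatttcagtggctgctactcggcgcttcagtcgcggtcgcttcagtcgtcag
Irgm2 (chr11:58214727-58215026, plus strand): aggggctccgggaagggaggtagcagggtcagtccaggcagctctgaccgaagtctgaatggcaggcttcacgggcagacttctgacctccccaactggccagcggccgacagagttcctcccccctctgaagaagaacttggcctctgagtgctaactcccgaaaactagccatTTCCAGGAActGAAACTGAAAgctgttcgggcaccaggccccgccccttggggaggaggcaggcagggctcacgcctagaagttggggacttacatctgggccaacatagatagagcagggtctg

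The Y box began 62 bases before the start in H2-Eb1 and 51 in H2-Aa, and its complement, CCAATCAG, 53 bases before the start in H2-D1. In B2m the ISRE letters began 139 bases before the start. In Irgm2 the GAS letters began 75 and the ISRE letters 64 bases before it. Of the called class II genes 6 of 8 had a promoter sequence, 3 with the Y box letters, 0 with the GAS and 0 with the ISRE. All 10 called class I genes had one, 4 with the Y box, 0 with the GAS and 3 with the ISRE. Of the called interferon-gamma response genes 6 of 7 had one, 2 with the Y box, 3 with the GAS and 3 with the ISRE. Of the called cytokine and chemokine genes 4 of 8 had one, and 0 held any of these letters. Over all 32851 promoters of 300 bases the letters stood in 4.1% (Y box), 8.3% (GAS) and 3.44% (ISRE). A match describes letters in these windows and shows no binding.

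Complement genes gave 5 positive and 0 negative calls of 16, with a median of 1.30. Apart from C3 these were C4b, C1qb, C1qc and the integrin gene Itgb2, the shared chain of the leukocyte complement receptors. C1qc, a chain of the recognition molecule C1q, had 2053, 1993, 1780.5 and 1791 CPM in NOD at 4 weeks and 2402, 2221 and 2312 CPM at 12 weeks. B6 libraries gave 2632, 2234, 2639 and 2239 CPM at 4 weeks and 819.7, 1003, 963 and 1209 CPM at 12 weeks. Both strains' ages were apart, yet the NOD change of 0.28 did not pass (adjusted p = 0.312) and the B6 fall of 1.29 did (adjusted p = 2.9e-09), for an interaction of 1.57 ± 0.16 (adjusted p = 1.4e-07), or 1.21 with B6 2 weeks. C1qa, the companion chain, was at 0.42 (adjusted p = 0.295). Taking B6 2 weeks the list gave 5 positive calls and 1 negative.

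Core macrophage genes were called mostly with a fall in B6. Of 18 tested, 6 were positive and 1 negative, with a median interaction of 0.53. Spi1, which encodes the myeloid transcription factor PU.1, had 272, 269, 209 and 228 CPM in NOD at 4 weeks and 241, 277 and 258 CPM at 12 weeks, and the ages overlapped. The values in B6 were 468, 709, 449 and 401 CPM at 4 weeks and 118, 135, 176 and 188 CPM at 12 weeks. The NOD change was 0.08 (adjusted p = 0.979), the B6 change -1.72 and the interaction 1.80 ± 0.24 (adjusted p = 1.13e-05). The Fc receptor genes Fcer1g (1.44 ± 0.19) and Fcgr3 (1.02 ± 0.19) and the inhibitory receptor gene Sirpa (1.11 ± 0.19) followed this form, with changes of 0.37, -0.02 and 0.27 in NOD that did not pass and falls of 1.07, 1.04 and 0.84 in B6. Itgax, a gate marker, and Cd68 were also called positive, and Mertk, a receptor for the uptake of dying cells, negative (-2.48 ± 0.46, adjusted p = 0.00113). Csf1r was at -0.01 (adjusted p = 0.984). Taking B6 2 weeks 4 members were positive and 0 negative, and the list's median was -0.06. Spi1 was then at 0.98 (adjusted p = 0.00286), and Fcgr3 did not pass (0.52, adjusted p = 0.104).

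Growth factor and matrix genes gave 3 positive calls of 24, Tgfbi, Mmp14 and Tgfb1, and no negative call. Tgfbi, a matrix protein induced by TGF-beta, had 1263, 1475, 1357 and 1226 CPM in NOD at 4 weeks and 3019.5, 2301 and 3448 CPM at 12 weeks. Among B6 libraries it had 1109.8, 969, 1200.3 and 832 CPM at 4 weeks and 562, 734, 623 and 800.1 CPM at 12 weeks. At 4 weeks the NOD libraries lay just above the B6 libraries, by 0.37 (adjusted p = 0.0935), and at 12 weeks further above them, by 2.10 (adjusted p = 4.3e-10). The interaction was 1.73 ± 0.23 (adjusted p = 1.23e-05), or 1.03 with B6 2 weeks. Mmp14, a membrane metalloproteinase, was at 1.69 ± 0.26 (adjusted p = 1.39e-04), and Tgfb1 differed, since it fell in both strains, by 0.60 in NOD and 1.40 in B6. Tgfb1 did not pass in the 4 groups alone (adjusted p = 0.0587) or with B6 2 weeks (0.27, adjusted p = 0.446).

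Immediate early and dissociation genes gave 4 positive calls of 23 (Zfp36, Junb, Ier2 and Ier3), glycolysis genes 4 of 18 (Gpi1, Aldoa, Pkm and Hk3) and oxidative phosphorylation genes 2 of 30 (Cyc1 and Atp5b), each with no negative call. The shares called were 17.4%, 22.2% and 6.67%, against 4.44% of all tested genes, so the last was near that of all genes. The fall in B6 from 4 to 12 weeks passed the threshold for all of these called genes but Ier3 (-0.64, adjusted p = 0.242) and Hk3 (adjusted p = 0.146). In NOD the change passed for Hk3 alone (2.05, adjusted p = 0.032), and Ier3 was at 1.23 (adjusted p = 0.155). In the 4 groups alone 1 of the 4 immediate early genes (Zfp36), 2 of the 4 glycolysis genes (Gpi1 and Aldoa) and 0 of the 2 oxidative phosphorylation genes were called. With B6 2 weeks, Zfp36 (adjusted p = 0.325), Ier2 (0.129), Gpi1 (0.0941), Aldoa (0.292) and Cyc1 (0.51) did not pass. The immediate early list summed to 27700 to 41370 CPM in B6 at 4 weeks, 10610 to 29250 CPM in B6 at 12 weeks, 9732 to 13580 CPM in NOD at 4 weeks and 11820 to 20370 CPM in NOD at 12 weeks. With 1 library left out the positive calls ran from 1 to 4, from 3 to 7 and from 0 to 5, in that order. Without the first B6 4 week library 7 glycolysis genes were positive and 1 negative. The oxidative phosphorylation list had 0 calls without any 1 of the NOD 12 week libraries, the first B6 12 week library or any NOD 4 week library but the second, and 5 positive and 1 negative without the third B6 4 week library. The part of tissue dissociation in any B6 result here was not tested. Cell cycle genes (32) and cholesterol synthesis genes (20) gave 0 calls in edgeR and 0 in limma-voom, with 3 and 2 in DESeq2, and 5 and 4 of them had an unadjusted p under 0.05, as 20.3% of all tested genes did.

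A smaller set of genes fell with age in NOD without a call for the change in B6. Mmp12, the macrophage elastase (chr9:7344381-7369499), had 1334, 1516, 988 and 1024 CPM in NOD at 4 weeks and 169.6, 145 and 129.8 CPM at 12 weeks. B6 had 807, 834, 993 and 856 CPM at 4 weeks and 801, 996, 1007 and 616 CPM at 12 weeks. The NOD 12 week libraries lay below every other library of the 4 groups, and the B6 ages overlapped. The interaction was -3.01 ± 0.31 (adjusted p = 2.13e-07), with changes of -3.03 in NOD and -0.03 in B6 (adjusted p = 0.938).

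Cd36, a scavenger receptor for oxidised lipoproteins and fatty acids (chr5:17781690-17888801), fell in NOD from 64.9, 60.0, 35.8 and 39.7 CPM to 5.29, 6.35 and 8.33 CPM. Its B6 libraries had 109, 184, 107 and 118 CPM at 4 weeks and 86.6, 115, 156 and 97.3 CPM at 12 weeks. NOD was thus under B6 at 4 weeks already, by 1.37 (adjusted p = 3.7e-04), and further under it at 12 weeks, by 4.09 (adjusted p = 2.73e-10). The interaction was -2.72 ± 0.38 (adjusted p = 3.39e-05). Hpgd, which inactivates prostaglandins, had 46.3 to 66.2 CPM in NOD at 4 weeks and 4.39 to 9.76 CPM at 12 weeks, against 58.0 to 223 CPM and 106 to 156 CPM in B6, for an interaction of -3.10 ± 0.49 (adjusted p = 1.53e-04). In the same libraries Ptgs2, which acts upstream in that pathway, had risen.

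Other falls in NOD took in a receptor, a lectin and regulators of transcription. S1pr1, the sphingosine phosphate receptor that guides cells out of tissue, had 119, 100.5, 71.0 and 109 CPM in NOD at 4 weeks and 16.3, 29.7 and 10.9 CPM at 12 weeks, with 131 to 170 and 133 to 192 CPM in B6. Siglech, a sialic acid lectin of plasmacytoid dendritic cells and microglia, had 94.4, 119.8, 77.6 and 116 CPM and then 24.3, 28.1 and 10.6 CPM in NOD, with 83.3 to 149 and 85.7 to 175 CPM in B6. Bhlhe41, a transcriptional repressor of tissue macrophages, had 48.9, 53.6, 49.2 and 53.1 CPM and then 10.2, 11.7 and 7.77 CPM in NOD, with 15.6 to 39.2 and 33.2 to 44.6 CPM in B6. In all 3 genes the NOD 12 week libraries lay below every other library of the 4 groups. The interactions were -2.59 ± 0.39, -2.65 ± 0.43 and -2.71 ± 0.45 (adjusted p = 7.88e-05, 1.9e-04 and 2.55e-04). Hdac9, Plxdc2 and the collagen genes Col14a1 and Col27a1 were called likewise, at -2.42, -1.69, -1.98 and -1.78. Taking B6 2 weeks as the baseline these 10 genes were all called negative, between -4.50 (Mmp12) and -1.40 (Plxdc2), and Col27a1 alone did not pass in limma-voom (adjusted p = 0.0627).

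In the lipid-associated and phagocytic list 4 of 23 genes were negative (Mmp12, Cd36, Trem2 and Lpl) and 2 positive (Nr1h3 and Ctsb), and the median was -0.11. Ctsb did not pass with B6 2 weeks (0.54, adjusted p = 0.132). Trem2, a lipid-sensing receptor, was at -1.41 ± 0.33 (adjusted p = 0.0112) and Lpl, lipoprotein lipase, at -1.83 ± 0.53 (adjusted p = 0.042), both through NOD, where the changes were -1.76 and -1.90. Nr1h3, which encodes the oxysterol receptor LXR alpha, went the other way: it had at most 13.2 CPM in NOD at 4 weeks and 70.0, 68.6 and 113 CPM at 12 weeks. The corresponding B6 levels were 35.5, 80.4, 1.25 and 27.2 CPM at 4 weeks and 5.36, 0.162, 0.668 and 2.97 CPM at 12 weeks, an interaction of 7.27 ± 1.23 (adjusted p = 3.41e-04). The interaction of Nr1h3 was 4.60 with B6 2 weeks (adjusted p = 0.0259). Apoe, Axl, Lipa and Abca1, further genes of lipid handling, were between -0.43 and 0.08 and did not pass.

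Of the 385 genes with a negative call, 202 had a mean under 1 CPM in B6 at 4 weeks, as had 6048 of all 19703 tested genes. Of the 90 also called in the 4 groups alone, 33 did. Klf9, a transcription factor that responds to glucocorticoids, had 0, 0.888, 0.114 and 0.103 CPM in B6 at 4 weeks and 29.1, 20.5, 21.5 and 8.06 CPM at 12 weeks. In NOD it had 2.47, 5.61, 10.5 and 7.73 CPM at 4 weeks and 11.1, 6.59 and 8.33 CPM at 12 weeks, which overlapped. The interaction was -5.75 ± 1.03 (adjusted p = 6.24e-04), and -2.76 with B6 2 weeks, where Klf9 had 1.66 to 3.20 CPM. Taf4b, a subunit of the general transcription factor TFIID, had 0.348 to 1.03 CPM in B6 at 4 weeks against 6.79 to 23.7 CPM in the other 3 groups, and its interaction of -4.38 became -0.13 with B6 2 weeks (adjusted p = 0.927). Chaf1a, a subunit of chromatin assembly factor 1, had 0.114 to 0.308 CPM in B6 at 4 weeks and 14.9 to 29.0 CPM at 2 weeks, and its interaction of -6.35 turned to 0.49 with that baseline (adjusted p = 0.798).

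Scd2 (-3.66), Zcchc9 (-3.93), Rabggtb (-5.80), Yod1 (-5.98) and Map7d3 (-5.63) likewise lay at 0 to 3.04 CPM in B6 at 4 weeks, and none passed with B6 2 weeks. Rps10 (-4.26) has near-identical copies, so its counts are uncertain. Mt2, a metallothionein, and Med12l passed with either baseline, at -3.30 and -3.40 with B6 4 weeks and -2.45 and -1.36 with B6 2 weeks. In limma-voom Mt2 (adjusted p = 0.236), Klf9 (0.121) and Rps10 (0.0819) did not pass. Neither did Taf4b (0.22), Chaf1a (0.121), Scd2 (0.148), Zcchc9 (0.153), Rabggtb (0.175), Map7d3 (0.13), Eno3 (0.082), Plk4 (0.0532) or Cd209a (0.108). Yod1 (0.0142) and Med12l (0.01) passed there. For Eno3, Plk4 and Cd209a a group held 3 or fewer counts, so no fold is given. Plk4, a centriole kinase, had 0, 0, 0 and 0.205 CPM in B6 at 4 weeks and 3.04 to 7.41 CPM in the other 3 groups, and Eno3, a muscle enolase, 0, 0, 0.227 and 0 CPM against 1.60 to 7.53 CPM. Of all 385 negative calls 57 had 0 counts in all B6 4 week libraries, as had 1165 of all 19703 tested genes. A low level there makes an interaction more negative by definition. The part of the low number of genes seen in those libraries in these calls was not tested.

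**Figure D5:**
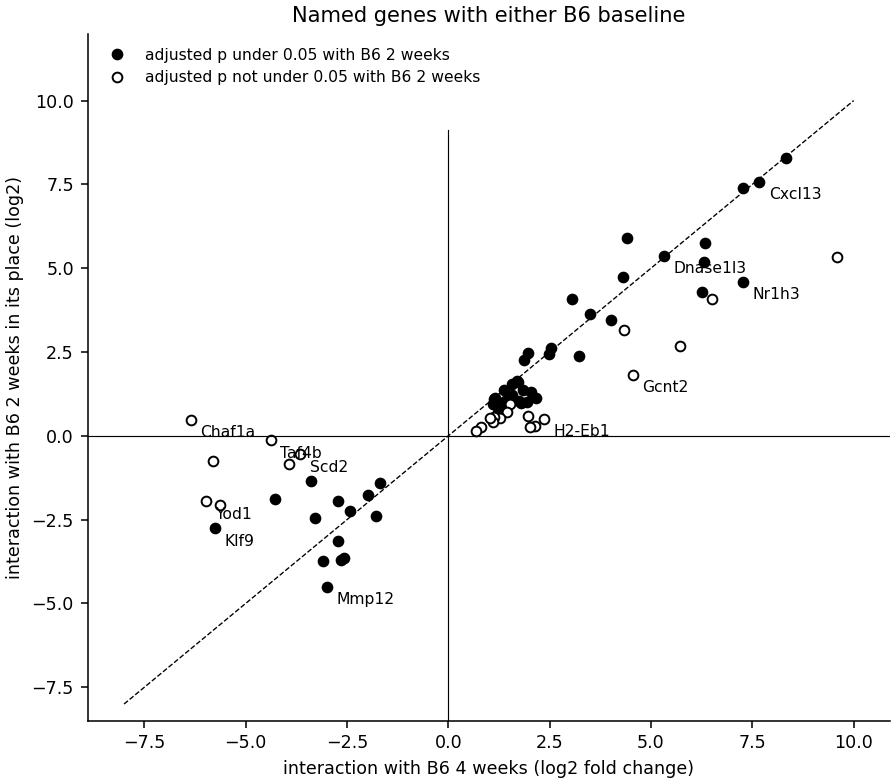
Interaction log2 fold change with B6 4 weeks (x axis) against that with B6 2 weeks in its place (y axis) for 75 named genes; filled points, 51 genes, passed with the second baseline and open points, 24 genes, did not. Cxcl13 and Dnase1l3 lie on the dashed line of equal values, the class II gene H2-Eb1 lies below it near 0, and Chaf1a, Taf4b and Scd2 lie near 0 on the y axis.

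Markers of other cells moved in part with the results. T cell markers, 15 genes, summed to 72.6 to 96.1 CPM in NOD at 4 weeks and 94.2 to 117 CPM at 12 weeks. In B6 they summed to 38.9 to 91.0 CPM at 4 weeks and 30.8 to 89.6 CPM at 12 weeks. Of 11 tested T cell genes 0 were called in edgeR, DESeq2 or limma-voom, and 1 had an unadjusted p under 0.05 in edgeR. Their median change was 1.81 in NOD and 0.75 in B6, against 0.08 and 0.06 over all tested genes. Cd2 and Trbc2 were at 0 throughout the 4 week groups of both strains. No T cell marker was at 0 throughout NOD at 12 weeks, and Trbc2 was in B6 at 12 weeks. The 10 natural killer cell markers summed to 3.94 to 5.72 CPM in NOD at 4 weeks and 27.8 to 35.0 CPM at 12 weeks, against 2.04 to 45.4 and 5.51 to 22.2 CPM in B6, and Nkg7 and Ncr1 were at 0 throughout NOD at 4 weeks. Klrk1 was the 1 call of 7 tested, and without the second B6 4 week library it was at 2.24 (adjusted p = 0.264). It also did not pass in the 4 groups alone (adjusted p = 0.0952), in limma-voom (0.427) or with the replicate block (0.0689). The part of T cell or natural killer cell RNA in the NOD rises was not tested. Dendritic cell markers summed to 330.1 to 349.8 CPM in NOD at 4 weeks and 388 to 503 CPM at 12 weeks, which did not overlap, and to 359 to 549.8 and 437 to 575 CPM in B6, with 0 positive calls and 2 negative (Siglech and Cd209a) of 15.

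B and plasma cell markers summed to 371 to 521 CPM in NOD at 4 weeks and 262 to 446.5 CPM at 12 weeks. In B6 they summed to 713 to 1053 CPM at 4 weeks and 317 to 439 CPM at 12 weeks, which did not overlap. They gave 1 positive call of 8, Igkc. This gene was read in 1 NOD 12 week library (71.5 CPM, with 0 and 0.225 in the others). It was also read in 1 B6 4 week library (43.5 CPM, with 0 in the others). Without the first NOD 12 week library Igkc did not pass (adjusted p = 0.225). Monocyte and neutrophil markers summed to 105 to 125 CPM in NOD at 4 weeks and 194 to 226 CPM at 12 weeks, and to 90.0 to 145 and 167 to 234 CPM in B6, so neither strain's ages overlapped. They gave 1 positive call of 11, Csf3r, which was lost in 18 of 25 alternatives. Endothelial and stromal markers summed to 75.6 to 99.3 CPM in NOD at 4 weeks and 179 to 213 CPM at 12 weeks, and to 37.6 to 389 and 91.6 to 149 CPM in B6, where the ages overlapped. They gave 1 positive call of 17 (5.88%, against 4.44% of all tested genes), Eng, which did not pass in the 4 groups alone (adjusted p = 0.0608). The part of RNA from these cells in the NOD rises was not tested. There were 0 calls among acinar and duct (13), erythroid (7) and islet endocrine (16) markers in edgeR and limma-voom. In DESeq2 these 3 lists gave 0, 1 and 2 calls, and 0, 2 and 3 genes had an unadjusted p under 0.05 in edgeR. The islet endocrine markers summed to 2001 to 7954 CPM in NOD at 4 weeks, 2455 to 3799 CPM in NOD at 12 weeks, 1101 to 1593 CPM in B6 at 4 weeks and 287 to 639 CPM in B6 at 12 weeks, so the B6 ages were apart and the NOD ages overlapped. Ins2 was at an interaction of 0.70 (adjusted p = 0.603). In whole sorted populations fewer cells of a kind and less RNA per cell cannot be told apart.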

How the data were processed

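The members and gene lists were chosen with earlier results of these data known. The authors deposited whole read counts per gene, taken here as not normalized; builds mm10 and GRCm38 and the tools STAR, HTSeq and DESeq2 were named, per the submitters' processing notes, without roles or versions. Of 41092 lines 534 exact repeats were removed, leaving 40558 genes, and symbols and coordinates came from GENCODE M21 (40254 matched). Strain variants were not corrected for.

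Low genes were removed by filterByExpr (minimum count 10, minimum total 15) in R 4.3.3, and counts were scaled by TMM and fitted with edgeR 4.0.16's robust quasi-likelihood model, 1 mean per group over all 26 libraries. A gene was called at a Benjamini-Hochberg adjusted p under 0.05 over 19703 genes. The SE is the log2 fold change over the square root of F. A count of 0 was taken to lie under 3 counts, 0.224 to 0.536 CPM, for counting error only.

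Named genes were up to 12 per direction by size among those called in both fits with a mean of 5 CPM and over 3 counts per group, 3 per direction with fewer counts, and 4 per list; 10 per direction in which the NOD change was larger were added after values were seen, as were Il1b, Tnf, Ccl4, Iigp1 and other uncalled list members. The test was run on simulated counts in which a gene had the same spread in every group. The lower correlation between the B6 4 week libraries was not simulated, so that check cannot cover it. Alternatives were RLE and upper-quartile scaling, 2 other filters, DESeq2 1.42.0, limma-voom 3.58.1 with sample weights, the 4 groups alone, the replicate number as a block, a covariate of islet and acinar markers, omission of each library and, added later, B6 2 weeks for B6 4 weeks.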

Additional observations from a re-analysis of the deposited data

Results flagged for a closer look

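The change from 4 to 12 weeks differed between NOD and B6 for 874 genes by the test of the difference itself (edgeR quasi-likelihood, adjusted p under 0.05).

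Single libraries of groups of 4 stood apart from the other 3 in 21 of 255 checks of a gene in a group (Dixon's criterion at 95%, which chance meets in about 1 in 20 groups). Of these, 17 were in B6 at 4 weeks. The first library there was high for Cd3e (9.86 CPM) and Ccl5 (68.1 CPM) and low for Rgs6 (0.348 CPM) and Ier2 (102 CPM). The second was high for Igkc (43.5 CPM), Dlgap3 (46.4 CPM), Klrk1 (29.3 CPM), Hk3 (58.6 CPM), Cd36 (184 CPM) and Klf9 (0.888 CPM). The third was high for Prss2 (5.79 CPM), Fcgr3 (770 CPM), Mt2 (10.2 CPM) and Eno3 (0.227 CPM), and the fourth for Yod1 (1.03 CPM), Chaf1a (0.308 CPM) and Plk4 (0.205 CPM).

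In B6 at 12 weeks the first library was high for Colec12 (8.57 CPM) and the fourth for Cd3e (1.8 CPM). In NOD at 4 weeks the first library held 0 CPM of Rgs6 and the second 285 CPM of Atp5b, above the others.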

How the results depend on the processing

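Of 82 named genes with a call, 33 were called with the same sign under every alternative and 49 lost the call under at least 1. The sign turned for 1 gene, Chaf1a, which was at 0.485 with B6 2 weeks in place of B6 4 weeks. The count of interaction calls, 874, was 1906 in DESeq2, 329 in limma-voom and 292 in the 4 groups alone, and 444 to 1706 with 1 library omitted. It was 444, 466 and 448 without the first, the second and the third NOD 12 week library, and 1460, 1589 and 1706 without the first, the third and the fourth B6 4 week library. Positive calls, 489, were 915 in DESeq2, 260 in limma-voom and 202 in the 4 groups alone, and 292 to 789 with 1 library omitted. Negative calls, 385, were 228 without a filter, 991 in DESeq2, 69 in limma-voom and 90 in the 4 groups alone, and 132 to 933 with 1 library omitted. With B6 2 weeks as the baseline 954 genes were called, 324 of them with the same sign as in the main result.

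The share of positive among called genes was 55.9%, and 40.6% with upper-quartile scaling, 69.2% without a filter and in the 4 groups alone, and 79% in limma-voom. The median of all genes was 0.05, -0.13 with upper-quartile scaling and -0.31 in limma-voom, whose sample weights were 0.162 to 0.31 for B6 4 weeks and 0.553 to 4.28 elsewhere. The NOD age change gave 320 calls, 596 in DESeq2, 3286 in limma-voom, 177 in the 4 groups alone and 951 in a fit without B6 4 weeks (chosen after seeing the data), with 164 to 468 when 1 library was omitted. The B6 age change gave 3720 calls, 410 in limma-voom and 1923 in the 4 groups alone, with 2617 to 4647 when 1 library was omitted.

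Libraries with the same replicate number did not deviate together: of 21 correlations of their deviations, from -0.111 to 0.136, 1 was over 0.1. With the replicate number as a block 605 interactions were called, 255 of them negative. The cause of these differences was not tested. Depth limits genes near 3 counts, and the B6 4 week libraries, with the fewest genes seen, enter every interaction but those with B6 2 weeks.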
